A study of Mus musculus with 2 samples.

Results

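The genes described here are 10 genes used to recognize resident macrophages in mouse tissue: Adgre1, Csf1r, Cd68, Mrc1, Cd163, C1qa, C1qb, C1qc, Lyz2 and Fcgr3. They were taken by gene symbol, and all 10 were found among the 40879 gene symbols of both libraries. RNA-seq compared the intestine of ERAP1 WT mice with that of mice labelled as heterozygous for ERAP1 (ERAP1+/-), the enzyme that trims peptides in the endoplasmic reticulum before they are presented on MHC class I. The ERAP1+/- mice descend from an embryonic stem cell clone with the EUCOMM tm1a allele crossed with a Cre strain that the methods do not name, and exons 6 and 7 of the gene, flanked by loxP sites, are those that Cre deletes. Both groups were C57BL/6 mice of 8 weeks at the start of the study, called germ-free in the methods and housed in a specific pathogen-free facility. The labels give the tissue and the genotype and name neither a treatment nor a sex. The study's discussion describes this comparison as one at steady state, and its abstract calls the sequenced tissue colonic. RNA from 3 mice was pooled for each genotype and sequenced as 1 library, so the spread between mice is not known, no test between genotypes can be fitted, and no p-value is given.

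Macrophages of the intestinal wall lie under the epithelium and in the muscle layer, where they take up dying cells and bacteria and are renewed in large part from blood monocytes. The receptor encoded by Csf1r receives the survival signal of CSF1 and IL-34, and Adgre1 encodes F4/80, the surface protein by which mouse macrophages are most often recognized. Mrc1, Cd163 and Cd68 encode a mannose receptor, a receptor for hemoglobin bound to haptoglobin, and a glycoprotein of lysosomes. The C1q genes encode the recognition part of the first complement component, Lyz2 encodes a lysozyme that breaks bacterial cell walls, and Fcgr3 encodes a receptor for IgG.

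Counted reads numbered 8114826 in the WT library and 8907515 in the library labelled ERAP1+/-, and values given in pairs below name the WT library first. Reads came from the 3' ends of transcripts, so that a gene's count does not grow with the length of its transcript. Levels are given as reads and as CPM, each count divided by a library size normalised with TMM (the trimmed mean of M values). Intervals are exact 95% intervals for counting error only and leave out the spread between mice. Reads without molecular identifiers are not independent molecules, so the intervals may be too narrow even for counting error. Erap1 itself, the targeted gene, had 229 and 2 reads, which puts the second library at 0.730% of the WT level (95% interval 0.0878% to 2.67%). These reads come from the 3' end and not from exons 6 and 7, so they do not measure the deletion, but the level is below what 1 intact copy would leave, and the second library is therefore named by its label throughout. The intestinal epithelium genes Epcam (9812 and 9413 reads) and Cdh1 (18810 and 16678) were abundant in both libraries. The libraries also differed in genes of other tissues and of sex. A list of 24 epidermis genes summed to 4031 and 72.1 CPM, and 10 of these genes had no read in the library labelled ERAP1+/-. The sums of 24 skeletal muscle genes were 2181 and 316 CPM, and those of 12 smooth muscle genes 12758 and 6608 CPM. Xist, expressed from the inactive X chromosome, had 1635 and 6451 reads, and Y-linked Ddx3y had 319 and 29. Epidermis, muscle and sex differences therefore move with the genotype label, and their part in the values below was not tested.

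For each of the 10 macrophage genes, the level in one library was within 2-fold of that in the other. A gene was called changed when its log2(CPM + 1) differed by more than 1 and reached 4, which is 15 CPM, in 1 or both libraries. Over all genes that reached this level, 428 of 8013 were called, or 5.34%, with 1.39% higher and 3.96% lower in the library labelled ERAP1+/-. Of the macrophage genes, 6 reached the level: Csf1r, Mrc1, C1qa, C1qb, C1qc and Lyz2. The other 4, Adgre1, Cd68, Cd163 and Fcgr3, did not, and with no filter on low values their differences were within 2-fold as well. Together the 10 genes had 1816 and 2597 reads, or 234 and 279 CPM, and the ratio of the library labelled ERAP1+/- to WT was 1.19 (95% interval 1.12 to 1.27). Csf1r and Lyz2 carried most of this difference, because the other 8 genes had a ratio of 1.06 (95% interval 0.991 to 1.14). The median log2 difference was 0.05 over the 10 genes and 0.00 over the 16142 genes with at least 10 reads. In bulk RNA, a different number of macrophages and a different amount of RNA per macrophage cannot be told apart, in either direction.

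**Figure D1:**
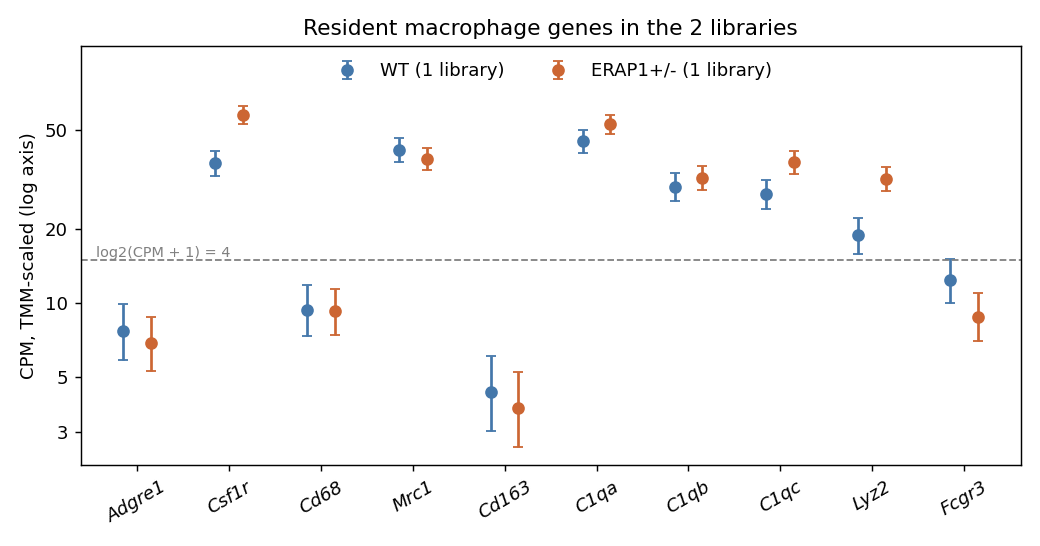
Level of each macrophage gene in CPM (log axis, TMM scaling) in the WT library and the library labelled ERAP1+/-, with exact 95% Poisson intervals for counting error; the dashed line is the level of 15 CPM. Csf1r and Lyz2 are the genes whose intervals lie farthest apart, and Cd163 has the lowest level in both libraries.

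By direction, 5 of the 10 genes had a log2 difference above 0 and 5 below 0, and 7 were above 0 with scaling by the total count. Of all 16142 genes with at least 10 reads, 50.3% were above 0 with TMM scaling. The counting interval of the ratio lay above 1 for Csf1r, Lyz2, C1qc and C1qa, lay below 1 for Fcgr3, and included 1 for the other 5. An interval of this kind compares the reads of these libraries and not the genotypes. Among the 8013 genes past the level, 25.5% had an interval above 1 and 32.4% an interval below 1, against 4 and 0 of the 6 macrophage genes past it. When both libraries were scaled by their total counts alone, the median of all genes past the level moved by 0.12 on the log2 scale, Cd68 and Mrc1 turned from below to above 0, and the interval of Fcgr3 came to include 1.

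**Figure D2:**
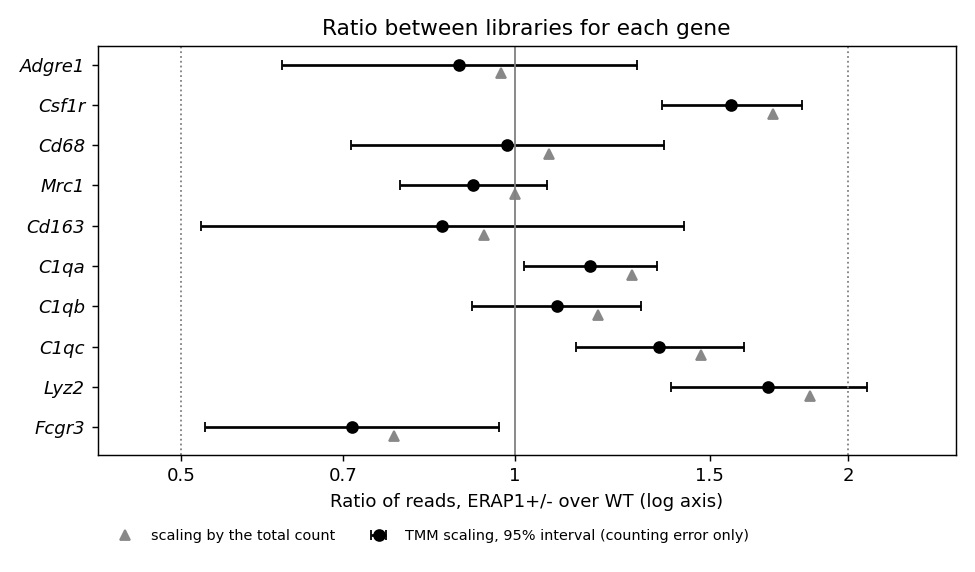
Ratio of reads in the library labelled ERAP1+/- to reads in the WT library (log axis) for each macrophage gene; circles with bars are TMM-scaled ratios with exact 95% intervals for counting error, triangles are ratios with scaling by the total count, and dotted lines mark 2-fold. The ratios run from 0.713 for Fcgr3 to 1.69 for Lyz2, with every ratio within the dotted lines and the interval of Lyz2 reaching past 2.

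Among the genes that define the lineage, the ratio was above 1 for the receptor Csf1r, and the interval included 1 for the F4/80 gene Adgre1. Csf1r had 287 and 539 reads, or 36.9 and 57.9 CPM, and a ratio of 1.57 (95% interval 1.36 to 1.82). Its log2 difference of 0.64 was above that of 95.4% of all genes past the level. Adgre1 had 60 and 64 reads, or 7.72 and 6.88 CPM, and its interval (0.617 to 1.29) included 1. There were thus 4.78 and 8.42 Csf1r reads per Adgre1 read, a ratio of 1.76 (95% interval 1.18 to 2.62) that does not depend on the scaling. With the interval widened to allow for all 45 pairs of the 10 genes, Adgre1 against Csf1r (0.568, widened interval 0.296 to 1.09) included 1, so this difference does not hold up among the 45 comparisons. In GENCODE M21 on GRCm38, Csf1r occupies 61100598 to 61132149 of chromosome 18 (plus strand), and Hmgxb3 on the minus strand overlaps its last 873 bases. Hmgxb3 had 113 and 196 reads and a ratio of 1.45 (95% interval 1.14 to 1.84). Whether the counting used the strand is not stated, and without it the reads of the overlapped end cannot be told apart, so the value of Csf1r is uncertain. Adgre1 lies on chromosome 17 from 57358691 to 57483527 and overlaps no other annotated gene.

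The ligands of this receptor had ratios whose intervals did not overlap. They and Spi1 are named for their roles, with their values already seen. Csf1, the ligand made by stromal and endothelial cells, had 148 and 304 reads and a ratio of 1.72 (95% interval 1.41 to 2.10). Il34, the other ligand of the receptor, had 183 and 217 reads and a ratio of 0.991 (95% interval 0.810 to 1.21). Transcripts of Spi1, which encodes the lineage factor PU.1, were few (30 and 51 reads), with an interval that included 1 (0.887 to 2.31). In the list of 13 genes of the CSF1 axis and of macrophage transcription factors, all had at least 10 reads, and none was called. Of these, 11 were above 0 and 2 below, beside 50.3% above 0 over all genes with at least 10 reads. The median log2 difference of the list was 0.23. The most read gene of this list was Irf8, a transcription factor of the monocyte and macrophage lineage (523 and 846 reads, ratio 1.35).

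The endocytic receptors and Cd68 were nearly level between the libraries. Mrc1, which binds sugars on microbes and on serum glycoproteins, had 325 and 357 reads, or 41.8 and 38.4 CPM (ratio 0.918, 95% interval 0.787 to 1.07). Cd68 had 73 and 86 reads, or 9.39 and 9.24 CPM (ratio 0.984, 95% interval 0.712 to 1.36). Cd163 had 34 and 35 reads, or 4.38 and 3.76 CPM, and with so few reads its interval ran from 0.521 to 1.42. For these 3 genes the summed ratio was 0.924 (95% interval 0.810 to 1.06), and a difference between libraries was not detectable at this depth. Mrc1 is on chromosome 2 from 14229392 to 14332057, Cd68 on chromosome 11 from 69664213 to 69666153, and Cd163 on chromosome 6 from 124304656 to 124330527. Mrc1 holds the microRNA gene Mir511, which had 0 reads in both libraries.

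The 3 C1q genes encode the A, B and C chains that assemble into 1 protein, and they lie side by side on the minus strand of chromosome 4 within 18675 bp. C1qb occupies 136880129 to 136886187, C1qc 136889804 to 136893065, and C1qa 136895917 to 136898803. C1qa had 352 and 493 reads, or 45.3 and 53.0 CPM (ratio 1.17, 95% interval 1.02 to 1.35). C1qb had 229 and 299 reads, or 29.5 and 32.1 CPM (ratio 1.09, 95% interval 0.915 to 1.30). C1qc had 214 and 346 reads, or 27.5 and 37.2 CPM (ratio 1.35, 95% interval 1.14 to 1.61). The 3 ratios lay on the same side of 1, with the interval of C1qb including 1, and together the genes had 795 and 1138 reads and a ratio of 1.20 (95% interval 1.09 to 1.31). The shares of the chains among the C1q reads had overlapping intervals. C1qa took 44.3% in the WT library (exact binomial 95% interval 40.8% to 47.8%) and 43.3% (40.4% to 46.3%) in the library labelled ERAP1+/-. The shares of C1qb were 28.8% (25.7% to 32.1%) and 26.3% (23.7% to 28.9%), and those of C1qc were 26.9% (23.9% to 30.1%) and 30.4% (27.7% to 33.2%).

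Because these neighbors serve 1 protein, the promoters of the C1q genes with an entry in the RefSeq table (build GRCm38.p6) are shown, each from 250 bases before the start to 50 bases after it. The C1qb window is chr4:136886151-136886450 and the C1qc window chr4:136892865-136893164, both on the minus strand and written 5′ to 3′. Capitals mark GAGGAA or its reverse complement TTCCTC, a longer form of the GGAA core that PU.1 shares with other ETS factors. GGAA alone is not marked.
C1qb: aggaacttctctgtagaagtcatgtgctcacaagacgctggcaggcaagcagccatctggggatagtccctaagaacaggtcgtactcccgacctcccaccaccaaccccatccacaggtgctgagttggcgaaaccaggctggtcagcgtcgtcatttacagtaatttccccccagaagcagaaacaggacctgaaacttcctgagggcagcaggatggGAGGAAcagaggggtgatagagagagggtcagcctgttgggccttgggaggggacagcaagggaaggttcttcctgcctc
C1qc: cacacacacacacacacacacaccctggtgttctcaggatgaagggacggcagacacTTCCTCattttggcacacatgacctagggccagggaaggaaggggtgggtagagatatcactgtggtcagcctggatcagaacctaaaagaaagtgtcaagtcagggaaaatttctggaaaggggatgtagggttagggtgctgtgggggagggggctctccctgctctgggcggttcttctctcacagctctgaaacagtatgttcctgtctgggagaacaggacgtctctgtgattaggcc
The motif occurred once in each window, forward in C1qb and reversed in C1qc. Of the 7 macrophage genes with a window, 5 held it on either strand (Cd68, Mrc1, C1qb, C1qc and Fcgr3), against 28.3% of all 32851 windows. The Fcgr3 window, chr1:171059354-171059653, lies inside the GENCODE gene, whose own start on the minus strand is at 171064935. Lyz2 and Cd163 did not hold GAGGAA or TTCCTC in their windows. A match describes letters and not a bound site.

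Lyz2 had the largest ratio of the 10 genes. It had 146 and 296 reads, or 18.8 and 31.8 CPM, with a ratio of 1.69 (95% interval 1.38 to 2.08) and a log2 difference of 0.73, above that of 96.7% of all genes past the level. Lyz2 is also used by neutrophils and monocytes. Its neighbor Lyz1, the lysozyme of Paneth cells, had 89 and 51 reads and was 2.09-fold lower (95% interval 1.46 to 3.01). The libraries thus held 1.64 and 5.80 Lyz2 reads per Lyz1 read. The genes are near-identical copies on the minus strand of chromosome 10, with Lyz2 from 117277331 to 117282321 and Lyz1 from 117287797 to 117292868. Their transcripts agreed at 96.0% of 1262 aligned bases, and of the 426 windows of 75 bases, the read length, in the last 500 bases of Lyz2-201, 30 also occur in Lyz1. How reads that match both were shared is not stated, so both values are uncertain. For each of the other 9 macrophage genes, none of these windows occurred in another gene. Most Paneth cell genes were at or near 0: the 5 defensin genes of the list had no read in either library, Mmp7 had 0 and 5 reads, and Pla2g2a 14 and 60.

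The promoter windows of this pair are shown because the copies differ in opposite directions. The Lyz2 window is chr10:117282223-117282522 and the Lyz1 window chr10:117292819-117293118, both on the minus strand of GRCm38.p6, 5′ to 3′, with no capitals because GAGGAA and its complement are absent.
Lyz2: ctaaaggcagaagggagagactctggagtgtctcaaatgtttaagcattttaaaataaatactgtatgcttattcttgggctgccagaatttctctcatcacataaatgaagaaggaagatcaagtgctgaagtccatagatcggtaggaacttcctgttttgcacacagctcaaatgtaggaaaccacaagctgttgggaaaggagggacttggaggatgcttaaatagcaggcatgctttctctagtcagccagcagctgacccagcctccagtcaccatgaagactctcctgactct
Lyz1: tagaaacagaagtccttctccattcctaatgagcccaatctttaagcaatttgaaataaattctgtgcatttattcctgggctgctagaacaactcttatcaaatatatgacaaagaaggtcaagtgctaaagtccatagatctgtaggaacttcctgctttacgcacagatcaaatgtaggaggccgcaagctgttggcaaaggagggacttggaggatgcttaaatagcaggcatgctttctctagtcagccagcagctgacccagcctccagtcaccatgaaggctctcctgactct
The windows agreed at 83.6% of 298 aligned bases. Both hold the shorter GGAA, which is not marked.

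Fcgr3, the low-affinity IgG receptor, was the gene with the smallest ratio. It had 96 and 82 reads, or 12.4 and 8.81 CPM, and was 1.40-fold lower in the library labelled ERAP1+/- (95% interval 1.03 to 1.91). The gene occupies 171051174 to 171064935 of chromosome 1, minus strand. Among the other Fc receptor genes, 6 of 9 had at least 10 reads, none was called, and their median log2 difference was 0.19. Fcgrt, which encodes the receptor that recycles IgG, had the most reads (392 and 493, ratio 1.05). Fcer1g, whose product is the signaling chain that Fcgr3 needs, had 73 and 119 reads (ratio 1.36, 95% interval 1.01 to 1.85), so that receptor and chain lay on opposite sides of 1. The inhibitory receptor gene Fcgr2b had 40 reads in each library.

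**Figure D3:**
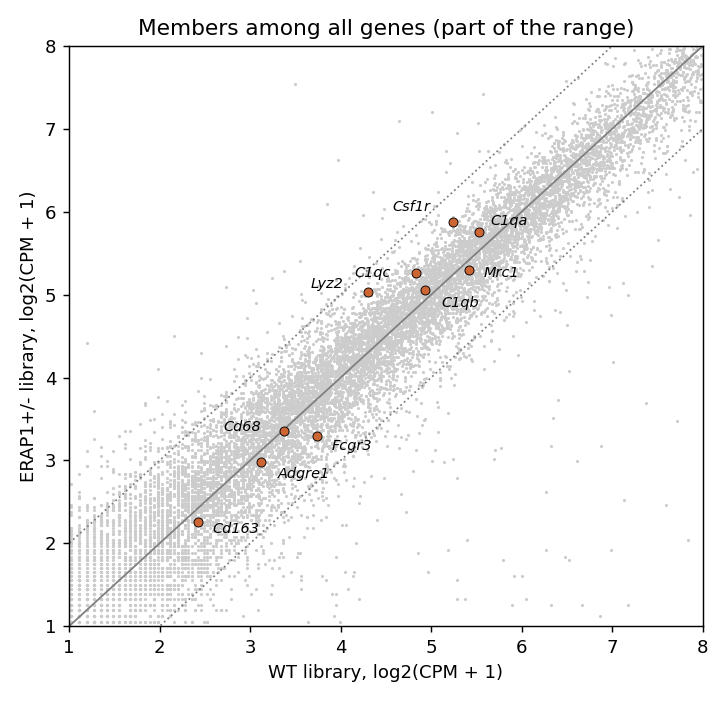
Log2(CPM + 1) in the WT library (x axis) and in the library labelled ERAP1+/- (y axis), each grey point a gene and each filled circle a macrophage gene; the solid line marks equal values and the dotted lines a 2-fold difference, and genes beyond the axis limits are not drawn. Csf1r and Lyz2 lie nearest to the upper dotted line, and no macrophage gene lies beyond either.

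C1qa, Mrc1 and Csf1r had the most reads of the 10 genes in both libraries, and Cd163 had the fewest. In the WT library the order of reads was C1qa, Mrc1, Csf1r, C1qb, C1qc, Lyz2, Fcgr3, Cd68, Adgre1 and Cd163, and 4 of the 9 steps between neighbors were larger than counting error. In the library labelled ERAP1+/- the order was Csf1r, C1qa, Mrc1, C1qc, C1qb, Lyz2, Cd68, Fcgr3, Adgre1 and Cd163, with 3 such steps. The largest step there was between Lyz2 and Cd68 (296 against 86 reads). Csf1r made up 15.8% of the macrophage gene reads in the WT library (exact binomial 95% interval 14.2% to 17.6%) and 20.8% (19.2% to 22.4%) in the other. The share of Mrc1 was 17.9% (16.2% to 19.7%) and 13.7% (12.4% to 15.1%).

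The ratios of all 45 pairs of macrophage genes were compared, which does not depend on how the libraries are scaled. The interval excluded 1 for 20 pairs, and for 6 pairs when its level was raised to allow for 45 comparisons. These 6 were Csf1r, C1qc and Lyz2 each against Fcgr3 and each against Mrc1. Csf1r against Mrc1 gave a ratio of ratios of 1.71 (95% interval 1.38 to 2.12), and Lyz2 against Fcgr3 gave 2.37 (1.64 to 3.44). Each gene recurs in several pairs, and the share among pairs of other genes was not computed. For single genes past the level, 25.5% of intervals lay above 1 and 32.4% below 1. The counts of 20 and 6 pairs are therefore not shown to be particular to these genes. At a threshold of 1.5-fold, Csf1r and Lyz2 were past it, both higher, where 15.6% of all genes past the level of 15 CPM differed as much and 5.54% were higher.

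Markers of leukocytes in general differed more than the macrophage genes did. Summed over the 10 pan-leukocyte genes there were 951 and 1970 reads, a ratio of 1.73 (95% interval 1.60 to 1.87), and all 10 had a log2 difference above 0, with a median of 0.82. The interval included 1 for Laptm5 (178 and 228 reads, ratio 1.07, 95% interval 0.876 to 1.31). It also included 1 for Cd53 (21 and 29 reads, ratio 1.15) and Rac2 (50 and 80 reads, ratio 1.34). Macrophages are leukocytes themselves and can add to the reads of this list. Only Cd52, a surface glycoprotein of leukocytes, was called (147 and 400 reads, ratio 2.27). The most read after it was Lcp1, an actin-bundling protein (131 and 289 reads, ratio 1.84). Ptprc, which encodes the common leukocyte antigen CD45, had 109 and 244 reads (ratio 1.87, 95% interval 1.49 to 2.37). Per pan-leukocyte read, there were therefore 1.91 and 1.32 reads of the macrophage genes, a ratio of 0.690 (95% interval 0.625 to 0.762). With Ptprc alone as the denominator the ratio was 0.639 (95% interval 0.501 to 0.811). Laptm5 had a smaller ratio than the 10 macrophage genes together (1.07 against 1.19), so that with Laptm5 alone the direction would reverse. The fall thus depends on the genes in the denominator. All 10 macrophage genes had a ratio below 1 per read of the whole pan-leukocyte list, and the interval excluded 1 for 8 of them. The exceptions were Csf1r (0.907, 95% interval 0.768 to 1.07) and Lyz2 (0.979, 95% interval 0.788 to 1.22). The lowest was Fcgr3, at 0.412 (95% interval 0.300 to 0.566). These 10 ratios share 1 denominator, whose own ratio was 1.73, so they are not 10 separate results. Lyz2, the highest of them, had a log2 difference above that of 96.7% of all genes past the level of 15 CPM. Most such genes would therefore also have a ratio below 1 on this measure.

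**Figure D4:**
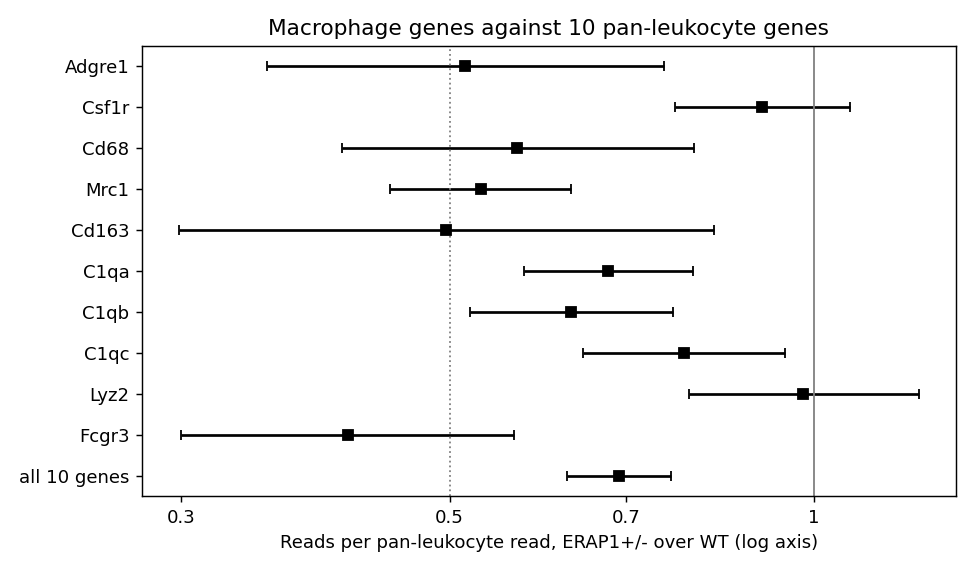
Reads of each macrophage gene, and of all 10 together, per read of the 10 pan-leukocyte genes, as the ratio of the library labelled ERAP1+/- to the WT library (log axis) with exact 95% intervals for counting error; the solid line marks 1 and the dotted line a 2-fold difference. Only the intervals of Csf1r and Lyz2 reach 1, and the 10 genes together lie at 0.690.

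Other genes used by macrophages also lay on both sides of 0. Of 19 such genes in the files, 17 had at least 10 reads, 8 were above 0 and 9 below, the median log2 difference was -0.08, and none was called. Selenop and Apoe, which encode a selenium carrier and a lipid carrier made by many cell types, had the most reads (4990 and 4617, 2509 and 2805). Summed over the 19 genes there were 10209 and 10500 reads, a ratio of 0.859 (95% interval 0.836 to 0.883), below 1 where the ratio of the 10 macrophage genes was 1.19, and most of these reads were those of Selenop and Apoe. The following genes of the list were picked after their values were seen. Mertk (399 and 435 reads, ratio 0.911, 95% interval 0.793 to 1.05) and Pf4 (374 and 415 reads, ratio 0.927, 95% interval 0.804 to 1.07) had intervals that included 1. The fractalkine receptor gene Cx3cr1, which marks resident macrophages of the gut mucosa, had 156 and 320 reads (ratio 1.71, 95% interval 1.41 to 2.09), close to the ratio of Csf1r. Cd14, a coreceptor for lipopolysaccharide, had 114 and 218 reads (ratio 1.60, 95% interval 1.27 to 2.02). Itgam, which encodes CD11b, had 142 and 99 reads and was 1.72-fold lower (95% interval 1.32 to 2.24). Slc11a1, a metal transporter of phagosomes, had 3 and 37 reads (ratio 10.3, 95% interval 3.26 to 52.2). Lyve1, carried by some tissue macrophages and by lymphatic endothelium, had 1197 and 1098 reads (1.31-fold lower, 95% interval 1.20 to 1.42). Timd4 (4 and 10 reads), Vsig4 (7 and 5) and Siglec1 (2 and 0) were near the limit of detection.

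Among 14 scavenger and lectin receptor genes none was called and the median log2 difference was 0.13. The most read were Scarb1 (159 and 220 reads), a receptor for high-density lipoprotein, and Cd36 (157 and 172), a receptor for fatty acids. Among 16 lysosome genes, many of which are used by other cells as well, none was called and the median was -0.13. The protease gene Ctss had the most reads (5652 and 4598) and was 1.47-fold lower (95% interval 1.42 to 1.53), whereas Lamp1 (3846 and 4262) was 1.08-fold lower (1.03 to 1.13). Of 20 complement genes, 19 had at least 10 reads, the median was 0.30, and 1 was called. This was Cfd, the complement factor D or adipsin of fat cells, with 163 and 558 reads (ratio 2.86, 95% interval 2.40 to 3.43), which also stands in the adipocyte list. The most read of the list were Serping1, the inhibitor of the C1 proteases (1287 and 1298 reads, ratio 0.842), and C1qbp, a mitochondrial protein that can bind C1q (676 and 1119, ratio 1.38). C1ra and C1s1, whose proteases bind to C1q, were picked for this role with their values seen. Their ratios were 1.32 (117 and 185 reads, 95% interval 1.04 to 1.68) and 1.24 (223 and 332 reads, 95% interval 1.05 to 1.48), and both intervals included the C1q ratio of 1.20.

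**Figure D5:**
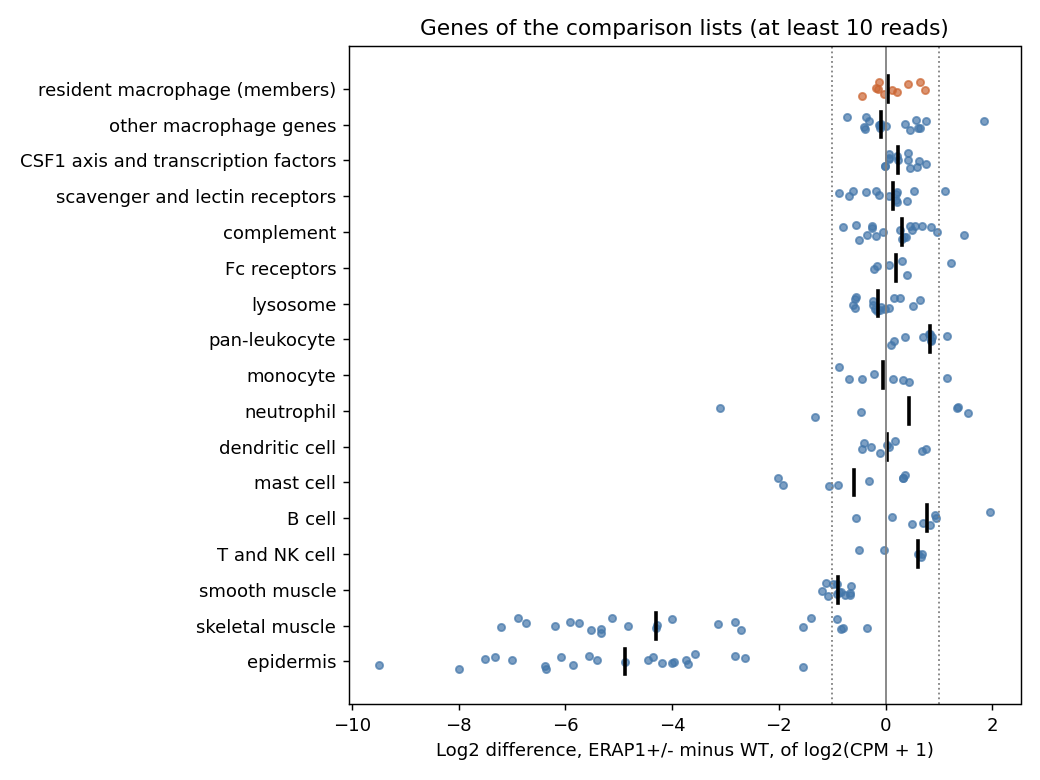
Log2 difference (library labelled ERAP1+/- minus WT library, log2(CPM + 1) scale) of the genes with at least 10 reads in lists of macrophage genes and of other cell types; each point is a gene, the black bar is the list's median, and dotted lines mark 2-fold. The macrophage genes center near 0 at 0.05, the pan-leukocyte genes at 0.82, and the epidermis genes at -4.87.

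Other leukocytes that could contribute reads to these genes were measured with their own lists. Of 10 monocyte genes, 8 had at least 10 reads, none was called, and the median log2 difference was -0.04. The most read was Plac8 (10636 and 6933 reads), and Vcan followed with 243 and 368. Plac8 was at 1369 and 745 CPM, beside 1263 and 1012 CPM for the epithelial gene Epcam. Which cells the Plac8 and Vcan reads came from was not tested. Ly6c2, the surface marker of inflammatory monocytes, picked after its value was seen, had 29 and 89 reads (ratio 2.56, 95% interval 1.67 to 4.04) and did not reach the level of 15 CPM. Of 14 neutrophil genes, 6 had at least 10 reads, and S100a8 (49 and 165 reads, ratio 2.81) and S100a9 (52 and 171, ratio 2.75) were called higher. Ly6g was called lower (2867 and 1367 reads), while Retnlg had 0 and 18 reads, at least 5.01-fold higher against a floor of 3 reads per library. Of the genes of neutrophil granules, picked after their values were seen, Ltf, the lactoferrin gene, had 95 and 5 reads and was 22.7-fold lower (95% interval 9.41 to 71.7), without reaching the level of 15 CPM. Mmp9 had 36 and 29 reads, Mmp8 2 and 6, Camp 0 and 3, Ngp and Mpo 0 and 1 each, and Elane had none. The receptor genes Csf3r (1 and 5 reads) and Cxcr2 (3 and 1) of the same list were also near the limit of detection. Which cells the Ly6g reads came from was not tested. The list held genes in both directions, with a median of 0.44, or 0.32 with Retnlg at that floor. The part of neutrophils and monocytes in the Lyz2 and Fcgr3 values was not tested.

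The dendritic cell list had a median log2 difference of 0.02 over 9 of 12 genes, with none called. Fscn1 of mature dendritic cells (124 and 121 reads) and Siglech of plasmacytoid ones (27 and 61) were the most read, and Cd207 of Langerhans cells had 2 and 1 reads. The mast cell list had a median of -0.60 over 8 of 9 genes, none at the level of 15 CPM. Its most read genes were the tryptase gene Tpsb2 (50 and 9 reads) and the transcription factor gene Gata2 (19 and 31). B cell genes had a median of 0.77 over 8 of 10 genes, and T and NK cell genes 0.61 over 5 of 17, with no gene of either list past the level. The most read were Pax5 (33 and 78 reads) and Cr2 (29 and 53) of B cells, and Cd2 (16 and 34) and Cd4 (21 and 15) of T cells. The fibroblast list, the stroma among which these macrophages lie, had a median of -0.14 over 10 genes, with Dcn (9267 and 7568 reads) and Col1a2 (6860 and 7410) the most read, and the adipocyte list 0.65 over 10, with Cfd and Pck1 called higher. The smooth muscle list, for the layer that holds the macrophages of the muscle wall, had a median of -0.89 over 12 genes, with Myh11, Tagln and Mylk called lower. In the list of 14 colon epithelium genes, Muc2, which encodes the main mucin of goblet cells, was called higher (12020 and 32939 reads), and Krt20 and Car4 were called lower.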

How the data were processed

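Intestinal RNA, pooled from 3 mice per genotype, was sequenced as 1 library each with the QuantSeq 3' mRNA-Seq FWD kit. The authors deposited whole-number read counts per gene symbol, without normalization. The methods name STAR with HTSeq and also Bowtie2 with RSEM, the submitters' processing notes name Bowtie2, RSEM and GRCm38, and which made the counts is not stated.

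Library sizes were multiplied by TMM factors (WT, 0.958; ERAP1+/-, 1.04) from edgeR 4.0.16 under R 4.3.3. Intervals of ratios are conditional binomial at 95% (scipy 1.17.1, exact) and those of ratios of ratios exact conditional odds ratio intervals, tested on simulated data. The simulated counts held counting error alone, so this checks the computation and not whether the intervals hold for these reads. Alternatives were DESeq2 1.42.0 size factors, total counts, TMM without epidermis and skeletal muscle genes, a pseudocount of 0.1 CPM in place of 1, other filters and thresholds, and reduced lists. Coordinates are from GENCODE M21 (GRCm38), promoters from RefSeq. Of each list, called genes or else the 2 most read were named, with others stated, and 1 gene that this rule names is not reported here. The members and lists were chosen with earlier results of these data known. Flow cytometry and RT-qPCR were not analysed here.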

Additional observations from a re-analysis of the deposited data

How the results depend on the processing

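No paired analysis was possible because the design holds 1 library of WT and 1 of ERAP1+/-, and for the same reason no library could be left out. The number of macrophage genes past 2-fold was 0 under all 3 other scalings, a pseudocount of 0.1, the other filters and a 4-fold threshold, and was 2 (Csf1r and Lyz2, both higher) with a 1.5-fold threshold. Over all genes the count of 428 was 414 with scaling by the total count (166 higher and 248 lower, against 111 and 317), 1434 with no filter, 1390 with at least 10 reads in 1 or both libraries, 160 with a log2 level of at least 6, 160 with a 4-fold threshold and 1247 with a 1.5-fold threshold. Scaling by the total count raised the median log2 difference of the 10 macrophage genes to 0.17 and the ratio of their summed reads to 1.30, because it moved all genes together. Without the C1q genes the median was -0.12, and without Lyz2 it was -0.02, so that the sign of the median depends on the genes included. The summed ratio lay between 1.15 and 1.19 with each reduced list. Of the 20 other lists, 2 medians changed sign with scaling by the total count and none with the other scalings or pseudocount. Depth limits Cd163, Adgre1, Cd68 and Fcgr3, which had fewer than 100 reads in each library, and the interval of Fcgr3 included 1 with scaling by the total count.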
